A study of Mus musculus with 10 samples.

Results

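The genes described here are 10 that the transcription factor NRF2 is known to drive or that encode it: Hmox1, Srxn1, Txnrd1, Gclc, Gclm, Nqo1, Cbr3, Abcc1, Osgin1 and Nfe2l2, the gene of NRF2 itself. They were chosen by symbol from the 24640 symbols in the table of all genes, leaving out the glutathione transferases, and all 10 were among the 15212 genes that passed the filter on low counts. The cells were brown adipocytes, fat cells that produce heat, of the mouse strain C57BL/6, and RNA sequencing gave 10 libraries. The 5 groups of 2 libraries were DMSO, the solvent control, for 1 day, DMSO for 3 days, BML-260 for 1 day, BML-260 for 3 days, and ISO, an abbreviation the labels leave unexplained and list at 1 day. BML-260 is a small molecule marketed as a Dusp22 phosphatase inhibitor. No genotype or allele is named for any group, and the labels state no dose, no age, and not whether the cells were primary or a line. The labels also leave it unsaid if the libraries of a group are separate cultures or animals. The p-values therefore reflect how far these particular libraries differ, and that spread may be technical.

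NRF2 is a basic leucine zipper protein that KEAP1 holds in the cytoplasm and hands to the proteasome in unstressed cells. Oxidants and electrophiles modify cysteines of KEAP1, NRF2 then accumulates, pairs with a small MAF protein in the nucleus and binds the antioxidant response element (ARE) in front of genes for glutathione synthesis, the thioredoxin system, quinone and carbonyl reduction, heme breakdown and drug export. Because control lies mostly at the level of NRF2 protein, its own messenger RNA is a poor gauge of its activity, and BACH1 competes for the same elements, above all at Hmox1. Brown adipocytes are rich in mitochondria and in heme, and handle large fluxes of oxidants when they burn lipid.

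The sequences around the starts of the genes were searched for 1 form of the core letters of the ARE. In RefSeq's promoter windows on GRCm38.p6, which run from 250 bases before to 50 bases after a start, 7 of the 10 genes matched by symbol with 9 windows, and Hmox1, Gclc and Abcc1 had no match. The letters searched were TGACNNNGC, or GCNNNGTCA for the other strand, with N any base. They occurred in 4 of these 9 windows, 1 each of Srxn1, Gclm, Txnrd1 and Nfe2l2, against 4071 of all 32851 windows, or 12.4%. Printed below in lower case are the 250 bases before the start for Gclm (chr3:122245307-122245556, plus strand), for the second of the 3 Txnrd1 windows (chr10:82858956-82859205, plus strand) and for Nfe2l2 (chr2:75704664-75704913, minus strand), because these hold a match, and for Cbr3 (chr16:93682969-93683218, plus strand), because it rose most with BML-260 and holds none. Srxn1 is shown as the match with 10 bases on either side (chr2:152105542-152105570, plus strand), since this match to the letters searched lies after the start. Capitals mark the match.
Gclm: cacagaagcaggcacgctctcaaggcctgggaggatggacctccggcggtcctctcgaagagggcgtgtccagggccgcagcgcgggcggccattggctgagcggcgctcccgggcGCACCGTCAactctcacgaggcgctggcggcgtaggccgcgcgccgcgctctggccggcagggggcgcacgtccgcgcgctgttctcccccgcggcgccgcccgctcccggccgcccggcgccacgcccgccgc
Txnrd1: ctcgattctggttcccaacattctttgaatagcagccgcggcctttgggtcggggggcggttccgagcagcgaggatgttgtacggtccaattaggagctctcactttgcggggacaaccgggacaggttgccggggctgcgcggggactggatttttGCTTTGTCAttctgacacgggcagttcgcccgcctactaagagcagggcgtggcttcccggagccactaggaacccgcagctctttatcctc
Nfe2l2: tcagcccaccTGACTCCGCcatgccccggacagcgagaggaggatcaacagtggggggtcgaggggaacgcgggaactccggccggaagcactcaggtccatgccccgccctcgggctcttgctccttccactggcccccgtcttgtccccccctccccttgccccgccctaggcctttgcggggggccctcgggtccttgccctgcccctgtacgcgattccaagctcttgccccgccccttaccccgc
Cbr3: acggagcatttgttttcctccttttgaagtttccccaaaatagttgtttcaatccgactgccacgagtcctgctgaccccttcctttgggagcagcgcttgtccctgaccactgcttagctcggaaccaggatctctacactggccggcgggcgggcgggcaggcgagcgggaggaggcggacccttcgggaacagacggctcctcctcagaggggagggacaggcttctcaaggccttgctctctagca
Srxn1: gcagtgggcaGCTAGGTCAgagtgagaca
Counting the first transcribed base as position 1 and the base before it as -1, the matches begin at -134 in Gclm, -92 in Txnrd1, -240 in Nfe2l2 and 29 in Srxn1. The windows of Nqo1 and Osgin1 and the other Txnrd1 windows held no match either. A match describes letters only, and a window without one says nothing about elements farther away or of other letters. Letters with G in place of the C after TGA were not searched for. They do stand before the starts of Srxn1 (tgagtcagc) and Osgin1 (gctgactca, read on the other strand). The other windows were not searched for them.

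Library totals ran from 16955918 to 21185675 counts. Levels are given as CPM, the usual rate of counts to library total, with totals scaled by TMM. Fold changes, their standard errors (SE) and p-values come from edgeR's quasi-likelihood test, adjusted by Benjamini-Hochberg over all 15212 genes, and a gene rose or fell where the adjusted p was under 0.05. Defining adipocyte markers such as Fabp4 and Adipoq were abundant (7 markers summed to 10140 to 17640 CPM). Ucp1 is the uncoupling protein that marks brown fat. Its group means were 5.58 CPM with DMSO and 13.95 CPM with BML-260 at 1 day, 12.7 and 31.8 CPM at 3 days, and 24.8 CPM with ISO. Dio2 had at most 2 counts in a library. Of 7 brown adipocyte markers tested, 3 rose and 2 fell with BML-260 at 1 day, and 3 rose and 3 fell at 3 days. At 3 days Ucp1 was at 1.32, Elovl3 at 1.28 and Cidea at 0.24 on the log2 scale. Those that fell were Prdm16 at -0.75, Ebf2 at -0.48 and Ppargc1a at -0.28. The adipocyte markers moved with the compounds too: with BML-260 2 of the 7 rose and 3 fell at 1 day, and 1 rose (Fabp4, 0.31) and 4 fell at 3 days (Adipoq at -1.06, Cebpa at -0.94, Pparg at -0.45 and Lpl at -0.29). With ISO 1 rose and 5 fell against DMSO at 1 day, and 1 rose and 4 fell against DMSO at 3 days. Of all tested genes 17.9% were called with BML-260 at 1 day and 35.5% at 3 days. For ISO the shares called were 41.7% against DMSO at 1 day and 19.9% against DMSO at 3 days.

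With BML-260, 9 of the 10 genes rose at 1 day, where 17.9% of all tested genes were called, 9.32% as higher and 8.62% as lower. At 3 days 8 of the 10 rose, where 35.5% of all tested genes were called, 17.3% as higher and 18.3% as lower. None of the 10 fell at either time. The median log2 fold change of the 10 genes was 0.33 at 1 day and 0.51 at 3 days, against -0.00101 and -0.0161 over all tested genes. Cbr3 and Hmox1 rose most at 3 days, to 2.48 and 1.92 times the DMSO level. Osgin1 passed at neither time, and Nfe2l2 passed at 1 day only. Upper-quartile scaling moved the split of all called genes at 3 days from 2625 higher and 2782 lower to 2077 and 3313, while the same 8 genes stayed called as higher.

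**Figure D1:**
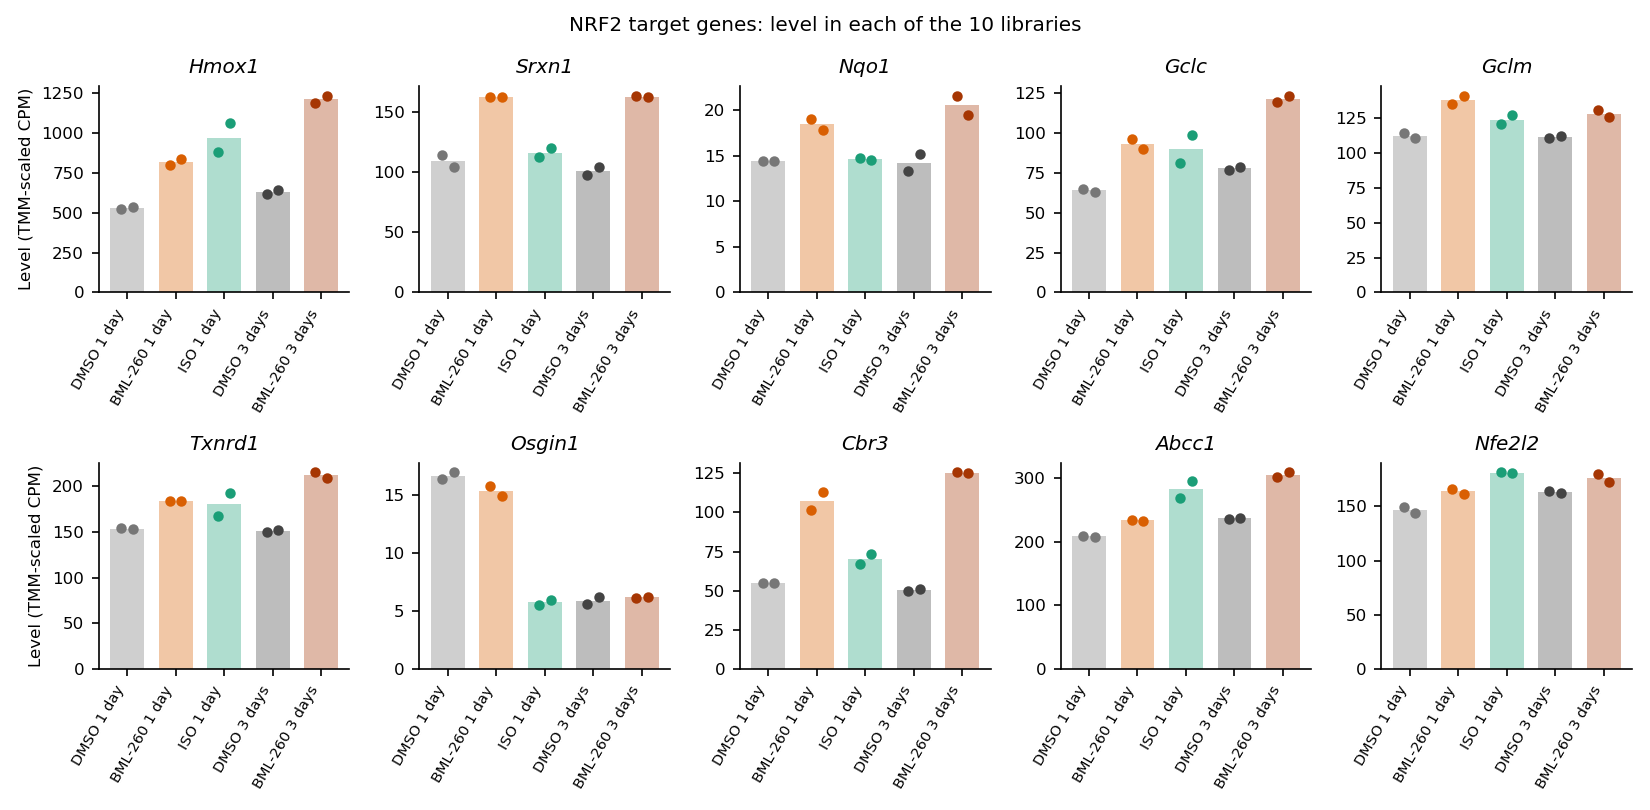
Level of each of the 10 genes in each library (points, TMM-scaled CPM on a linear axis from 0) with the mean of the 2 libraries of a group (bars), for DMSO, BML-260 and ISO listed at 1 day and DMSO and BML-260 at 3 days. Hmox1 reached 1189 and 1235 CPM with BML-260 at 3 days, whereas Osgin1 stood at 14.9 to 17.0 CPM in the 1-day DMSO and BML-260 libraries and at 5.50 to 6.24 CPM in all others.

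Hmox1 encodes heme oxygenase 1, which opens the heme ring to biliverdin, carbon monoxide and iron, and lies at chr8:75093621-75100589 on the plus strand (GRCm38, GENCODE M21, as for all gene positions here). Its levels were 525 and 535 CPM with DMSO and 798 and 835 CPM with BML-260 at 1 day, 621 and 644 CPM with DMSO and 1189 and 1235 CPM with BML-260 at 3 days, and 882 and 1063 CPM with ISO. Every BML-260 and ISO library was above every DMSO library, and the ISO libraries lay farthest apart. With BML-260 it rose by 0.62 (SE 0.058, edgeR adjusted p = 1.7e-08) at 1 day and 0.94 (SE 0.057, edgeR adjusted p = 1.6e-12) at 3 days on the log2 scale. Per kilobase of its longest coding transcript Hmox1 was the most abundant of the 10 genes in every group, from 338 CPM per kb (DMSO, 1 day) to 773 CPM per kb (BML-260, 3 days). In bulk RNA a changed number of cells of one type and a changed amount of RNA per cell cannot be told apart.

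Markers of other cells were read beside this. Macrophages express Hmox1 strongly, and 4 of 7 macrophage markers (Cd68, Lyz2, Csf1r and Cd14) were found by symbol and summed to 6.70 to 6.71 CPM with DMSO and 6.93 to 8.60 CPM with BML-260 at 1 day, 6.65 to 6.66 and 8.05 to 9.43 CPM at 3 days, and 9.36 to 10.5 CPM with ISO. Lyz2, a defining marker of macrophages, had 0 to 6 counts in a library, and Csf1r, the receptor for their growth factor, had 1 to 9. Cd68, a lysosomal protein abundant in macrophages, was at 0.39 (edgeR adjusted p = 0.18) with BML-260 at 1 day and rose by 0.72 (0.0012) at 3 days, and with ISO it rose by 1.06 (2.4e-05) against DMSO at 1 day and 0.70 (0.0034) against DMSO at 3 days. Cd14 was called in none of these comparisons. The sum of 8 preadipocyte and fibroblast markers was lower with BML-260, at 193.5 to 207 CPM against 297 to 311 CPM at 1 day and 300.3 to 309.7 CPM against 516 to 562 CPM at 3 days. With ISO it was 468 to 497 CPM. Of 7 such markers tested, 4 fell at 1 day and 5 at 3 days with BML-260, where 8.62% and 18.3% of all tested genes fell. The sum of 6 smooth muscle and pericyte markers was 108 to 118 CPM with BML-260 against 179 CPM with DMSO at 1 day, 101 to 111 CPM against 226 to 236 CPM at 3 days, and 174 to 200.1 CPM with ISO. Of 5 such markers tested, 4 fell with BML-260 at both times, against the same shares of 8.62% and 18.3%, with medians of -0.64 and -1.07. The part of these markers in the results on the 10 genes was not tested.

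In the thioredoxin system, Srxn1 encodes sulfiredoxin, which restores overoxidized peroxiredoxins (chr2:152105516-152111376, plus strand), and Txnrd1 the cytosolic thioredoxin reductase (chr10:82833951-82897712, plus strand). Srxn1 stood at 114 and 104 CPM with DMSO and 162.3 and 162.0 CPM with BML-260 at 1 day, at 97.1 and 104 CPM with DMSO and 163 and 161.7 CPM with BML-260 at 3 days, and at 112.5 and 119 CPM with ISO. Its 4 BML-260 libraries lay close together, between 161.7 and 163 CPM, and above all 6 others. The log2 fold change was 0.57 (SE 0.052, edgeR adjusted p = 1.3e-08) at 1 day and 0.69 (SE 0.052, edgeR adjusted p = 6.9e-11) at 3 days. Txnrd1 stood at 154 and 153 CPM with DMSO and 184 and 184 CPM with BML-260 at 1 day, at 150.2 and 152.5 CPM with DMSO and 215 and 209 CPM with BML-260 at 3 days, and at 167 and 193 CPM with ISO. All BML-260 and ISO libraries exceeded all DMSO libraries, and the 3-day BML-260 libraries were highest. Txnrd1 rose by 0.26 (SE 0.053, edgeR adjusted p = 0.00098) at 1 day and by 0.49 (SE 0.053, edgeR adjusted p = 4.7e-08) at 3 days on the log2 scale.

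Gclc and Gclm encode the catalytic and the modifier subunit of glutamate-cysteine ligase, the enzyme of the rate-limiting step of glutathione synthesis. Gclc (chr9:77754535-77794485, plus strand) was at 64.9 and 63.1 CPM with DMSO and 96.2 and 89.9 CPM with BML-260 at 1 day, at 77.0 and 79.0 CPM with DMSO and 119.7 and 123 CPM with BML-260 at 3 days, and at 81.4 and 98.5 CPM with ISO. Gclm (chr3:122245557-122270732, plus strand) was at 114 and 111 CPM with DMSO and 135 and 141 CPM with BML-260 at 1 day, at 111 and 113 CPM with DMSO and 131 and 126 CPM with BML-260 at 3 days, and at 121 and 127 CPM with ISO. In both genes no BML-260 library overlapped a DMSO library. The catalytic subunit rose by 0.54 (SE 0.066, edgeR adjusted p = 1.3e-06) at 1 day and 0.64 (SE 0.062, edgeR adjusted p = 7.2e-09) at 3 days on the log2 scale. The modifier subunit rose by 0.30 (SE 0.049, edgeR adjusted p = 6.9e-05) and 0.20 (SE 0.048, edgeR adjusted p = 0.002). With DMSO at 1 day the levels per kilobase were near each other, 18.7 CPM per kb for Gclc and 20.1 for Gclm, and with BML-260 at 3 days they were 35.5 and 23.0. Of the exonic bases of Gclm 4.71% overlap exons of Gm17494 on the other strand and Gm6061, whose reads its counts may include, and no other gene of the 10 overlaps annotated exons of another gene.

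Nqo1 and Cbr3 encode reductases of quinones and carbonyls, the first by transfer of 2 electrons from NADH or NADPH. Nqo1 (chr8:107388225-107403206, minus strand) was among the least abundant, at 14.38 and 14.39 CPM with DMSO and 19.0 and 17.8 CPM with BML-260 at 1 day, at 13.3 and 15.2 CPM with DMSO and 21.6 and 19.5 CPM with BML-260 at 3 days, and at 14.8 and 14.5 CPM with ISO. The 4 BML-260 libraries were the highest, and ISO lay within the range of DMSO. The log2 fold change was 0.35 (SE 0.098, edgeR adjusted p = 0.012) at 1 day and 0.52 (SE 0.094, edgeR adjusted p = 8.4e-05) at 3 days. Cbr3 (chr16:93683215-93690990, plus strand) was at 54.7 and 55.2 CPM with DMSO and 101 and 113 CPM with BML-260 at 1 day, at 49.9 and 51.1 CPM with DMSO and 125.6 and 125.1 CPM with BML-260 at 3 days, and at 66.9 and 73.4 CPM with ISO. Its libraries fell into separate ranges, with DMSO lowest, ISO above it, and BML-260 at 1 day and then 3 days above both. Cbr3 had the largest fold changes of the 10 genes, 0.97 (SE 0.059, edgeR adjusted p = 7e-12) at 1 day and 1.31 (SE 0.058, edgeR adjusted p = 2.1e-15) at 3 days on the log2 scale.

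Abcc1 encodes a membrane pump that exports glutathione conjugates and oxidized glutathione (chr16:14361558-14475737, plus strand). It was at 209 and 207.5 CPM with DMSO and 234 and 233 CPM with BML-260 at 1 day, at 236 and 238 CPM with DMSO and 302 and 309 CPM with BML-260 at 3 days, and at 269 and 295 CPM with ISO. The 1-day BML-260 libraries were above DMSO of the same time but at the level of DMSO at 3 days. Abcc1 rose by 0.16 (SE 0.047, edgeR adjusted p = 0.015) at 1 day and 0.37 (SE 0.046, edgeR adjusted p = 4.9e-07) at 3 days on the log2 scale.

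Osgin1, a growth inhibitor induced by oxidized lipids, behaved unlike the others (chr8:119434124-119446256, plus strand). It was at 16.4 and 17.0 CPM with DMSO and 15.8 and 14.9 CPM with BML-260 at 1 day, at 5.59 and 6.19 CPM with DMSO and 6.14 and 6.24 CPM with BML-260 at 3 days, and at 5.50 and 5.97 CPM with ISO, from 92 to 316 counts in a library. It was high in the 4 libraries of DMSO and BML-260 at 1 day and low in the 4 at 3 days, and the ISO libraries, listed at 1 day, stood at the level of the 3-day ones. With BML-260 the log2 fold change was -0.12 (SE 0.10, edgeR adjusted p = 0.46, 95% interval -0.33 to 0.09) at 1 day and 0.07 (SE 0.14, edgeR adjusted p = 0.72, 95% interval -0.21 to 0.35) at 3 days.

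Nfe2l2, the gene of NRF2 (chr2:75675513-75704641, minus strand), was at 149 and 144 CPM with DMSO and 166 and 162 CPM with BML-260 at 1 day, at 164 and 162 CPM with DMSO and 180.1 and 172.5 CPM with BML-260 at 3 days, and at 181.5 and 181.1 CPM with ISO. Libraries of BML-260 were above DMSO of the same time, by small margins. On the log2 scale 0.16 (SE 0.046, edgeR adjusted p = 0.016) at 1 day passed, and 0.11 (SE 0.045, edgeR adjusted p = 0.058) at 3 days did not. The 3-day value passed with DESeq2's size factors (0.13, edgeR adjusted p = 0.027), with only the groups compared (0.12, edgeR adjusted p = 0.026), with DESeq2 itself (0.13, adjusted p = 0.045) and without ISO 1 day replicate 1 (0.12, edgeR adjusted p = 0.05, just under the threshold).

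**Figure D2:**
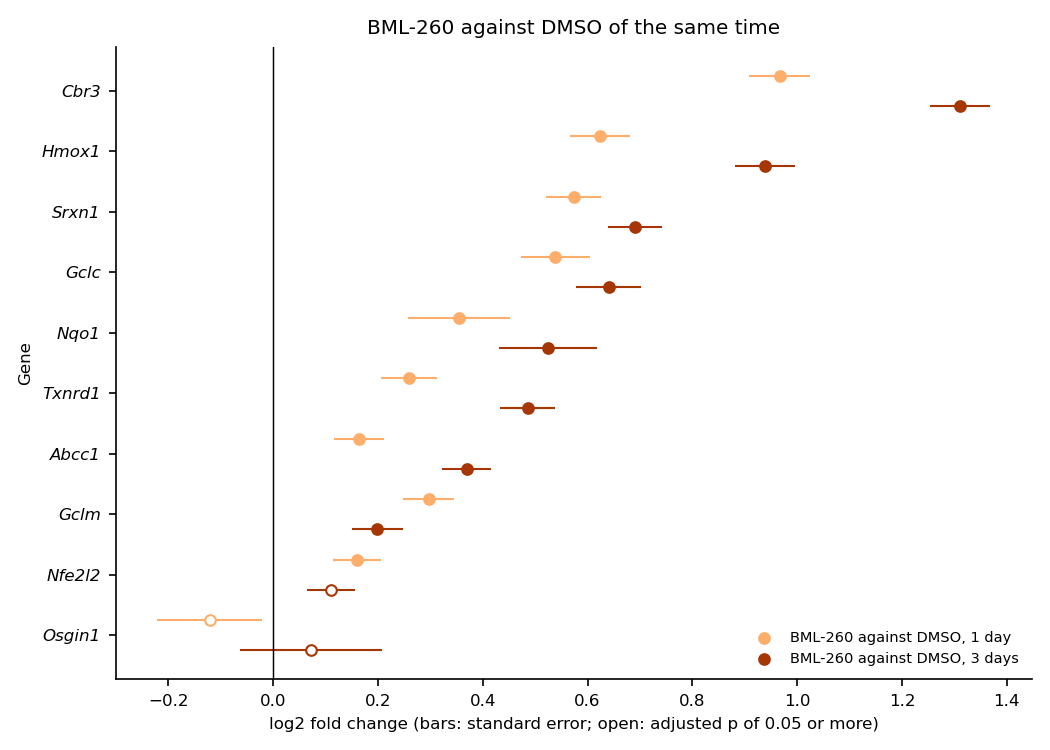
Log2 fold change of BML-260 against DMSO of the same time for the 10 genes (points; bars are 1 SE; open points have an adjusted p of 0.05 or more), at 1 day in light and 3 days in dark orange. Cbr3, Hmox1, Srxn1 and Gclc lie highest at both times, and the points of Osgin1 are on both sides of 0.

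Some calls at 1 day were lost when a library was left out, with fold changes near those of the full fit. Without DMSO 1 day replicate 2, 6 of the 10 genes were called: Nqo1 (0.35, edgeR adjusted p = 0.083), Abcc1 (0.16, 0.10) and Nfe2l2 (0.13, 0.15) were lost. Without BML-260 1 day replicate 1 the same 3 were lost, at 0.31 (edgeR adjusted p = 0.095), 0.16 (0.07) and 0.14 (0.13) on the log2 scale. Abcc1 was also lost without BML-260 1 day replicate 2 (0.17, edgeR adjusted p = 0.052). Such fits have fewer libraries, and without DMSO 1 day replicate 2 the count over all genes was 1235, against 2728. DESeq2 did not call Nqo1 at 1 day (0.36, adjusted p = 0.06). In the authors' deposited table for 1 day, Hmox1 (log2 fold change 0.605), Cbr3 (0.879), Srxn1 (0.537), Gclc (0.492), Gclm (0.278), Txnrd1 (0.246) and Abcc1 (0.156) are listed, and Nqo1, Osgin1 and Nfe2l2 are not. The authors' deposited table for 3 days lists these 7 and Nqo1 (0.468), with Cbr3 at 1.28 and Hmox1 at 0.942.

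Whether the effect of BML-260 differed between the times was tested by the interaction of compound and time. The effect was larger at 3 days for 2 of the 10 genes and smaller for none, where 8.44% of all tested genes were called, 3.93% with a higher and 4.51% with a lower value at 3 days. Hmox1 gained 0.31 (SE 0.081, edgeR adjusted p = 0.015, 95% interval 0.15 to 0.48) and Cbr3 gained 0.34 (SE 0.083, edgeR adjusted p = 0.0091, 95% interval 0.17 to 0.51) on the log2 scale. Just outside the threshold were Abcc1 at 0.21 (edgeR adjusted p = 0.052, 95% interval 0.07 to 0.34) and Txnrd1 at 0.23 (edgeR adjusted p = 0.058, 95% interval 0.07 to 0.38). For Srxn1 the difference was 0.12 (edgeR adjusted p = 0.35, 95% interval -0.03 to 0.27), for Gclc 0.10 (0.54, interval -0.08 to 0.29), for Nqo1 0.17 (0.49, interval -0.11 to 0.45), for Nfe2l2 -0.05 (0.70, interval -0.18 to 0.08), and for Osgin1 0.19 (0.53, interval -0.16 to 0.54). Gclm had the lower value at 3 days, by -0.10 (edgeR adjusted p = 0.42, 95% interval -0.24 to 0.04). These intervals are for each gene alone.

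Leaving out certain libraries ended each of these calls, at fold changes of similar size. Hmox1 was lost without DMSO 1 day replicate 2 (0.30, edgeR adjusted p = 0.06), without DMSO 3 days replicate 1 (0.32, 0.054), without BML-260 3 days replicate 2 (0.29, 0.065) and with DESeq2 (0.33, 0.095), and Cbr3 was lost without BML-260 1 day replicate 1 (0.27 on the log2 scale, edgeR adjusted p = 0.06). Each of these edgeR fits left 1 of the 10 genes called. Abcc1 and Txnrd1 were added, for 4 called, when either ISO replicate 1 or ISO replicate 2 was left out, with only the 4 groups compared and with DESeq2's size factors. With only the groups compared the split of all called genes was 926 higher and 622 lower, and with DESeq2 421 and 310, against 598 and 686.

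ISO was set against DMSO at 1 day, its listed time, and against DMSO at 3 days. The second was added because ISO lay nearer the 3-day libraries on the first principal component of all tested genes (41.3% of the variance). There ISO was at 17.9 and 21.4, and the other 1-day libraries were between -28.6 and -23.2. The 3-day libraries were at 5.05 and 4.94 with DMSO and at 27.2 and 29.0 with BML-260, so ISO lay between them. The component thus did not follow time alone. On the second component (20.1%) ISO was at 11.7 and 4.63, near DMSO at 1 day (6.27 and 8.17). DMSO at 3 days was at 20.4 and 22.5 there, and BML-260 between -18.5 and -18.2 at both times. If the true time was other than listed, time and compound cannot be told apart for ISO against DMSO at 1 day. The comparisons share the ISO libraries, and each shares its DMSO libraries with the comparison of DMSO over time.

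Against DMSO at 1 day, 7 of the 10 genes rose with ISO and 1 fell, where 41.7% of all tested genes were called, 21.4% as higher and 20.3% as lower. Hmox1 rose most, by 0.88 (SE 0.058, edgeR adjusted p = 3.8e-12) on the log2 scale, followed by Gclc by 0.50 (SE 0.066, edgeR adjusted p = 8.7e-07) and Abcc1 by 0.44 (SE 0.047, edgeR adjusted p = 2.4e-08). Cbr3 rose by 0.35 (edgeR adjusted p = 3.3e-05), Nfe2l2 by 0.31 (5.3e-06), Txnrd1 by 0.23 (0.00096) and Gclm by 0.14 (0.021). Osgin1 fell by 1.54 (SE 0.12, edgeR adjusted p = 6.9e-11), to 0.345 times its level with DMSO. Srxn1 at 0.09 (edgeR adjusted p = 0.18, 95% interval -0.02 to 0.20) and Nqo1 at 0.02 (edgeR adjusted p = 0.88, 95% interval -0.18 to 0.23) did not pass. The median of the 10 genes was 0.27, against -0.00359 over all tested genes.

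Against DMSO at 3 days, 8 of the 10 genes rose with ISO and none fell, where 19.9% of all tested genes were called, 10.6% as higher and 9.24% as lower. The rises were 0.62 for Hmox1 (edgeR adjusted p = 1.8e-08), 0.48 for Cbr3 (3.1e-06), 0.26 for Abcc1 (0.00026), 0.25 for Txnrd1 (0.0012), 0.21 for Srxn1 (0.0061), 0.21 for Gclc (0.019), 0.15 for Nfe2l2 (0.018) and 0.15 for Gclm (0.029) on the log2 scale. Osgin1 was at -0.03 (edgeR adjusted p = 0.90, 95% interval -0.32 to 0.25) and Nqo1 at 0.04 (edgeR adjusted p = 0.84, 95% interval -0.17 to 0.24). The median was 0.21, against -0.00227 over all tested genes. Upper-quartile scaling turned the split of all called genes from 3253 higher and 3086 lower to 2588 and 3831 against DMSO at 1 day, and from 1620 and 1406 to 1234 and 1817 against DMSO at 3 days, where DESeq2 gave 1203 and 640. With that scaling 6 of the 10 genes were called against DMSO at 3 days, the calls of Gclm (0.12, edgeR adjusted p = 0.084) and Nfe2l2 (0.12, 0.061) being lost, and with DESeq2 7 were called, without Gclm (0.16, adjusted p = 0.052).

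ISO replicate 2 exceeded ISO replicate 1 in 8 of the 10 genes, all but Nqo1 and Nfe2l2, and several calls were lost without it. The share of all tested genes higher in ISO replicate 2 was not counted, so the 8 cannot be set against it. Without ISO replicate 2 only Hmox1, Cbr3 and Abcc1 were called against DMSO at 3 days, and Gclc was at 0.06 (edgeR adjusted p = 0.62). Without DMSO 3 days replicate 1 the count was 4, and without DMSO 3 days replicate 2 it was 5. Against DMSO at 1 day, Txnrd1 (0.12, edgeR adjusted p = 0.10) and Gclm (0.11, 0.19) were lost without ISO replicate 2. Gclm was also lost without DMSO 1 day replicate 2 (0.12, 0.13) and with upper-quartile scaling (0.09, edgeR adjusted p = 0.14), and Srxn1 was gained without DMSO 1 day replicate 1 (0.16, 0.042).

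**Figure D3:**
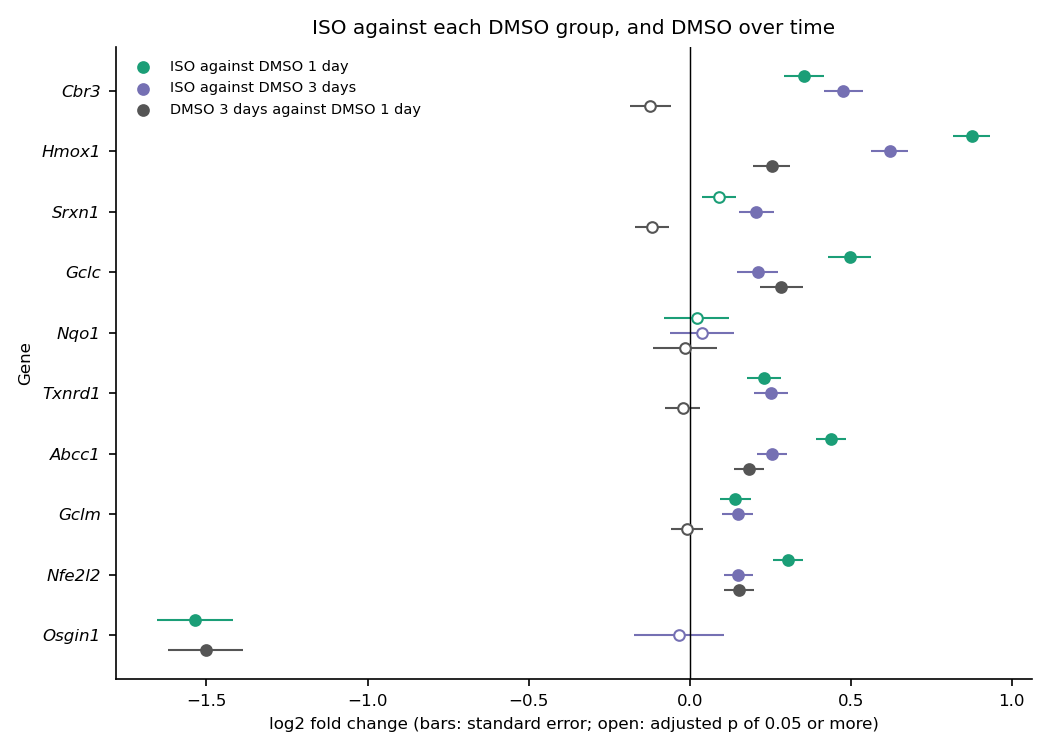
Log2 fold change of the 10 genes for ISO against DMSO at 1 day (green), ISO against DMSO at 3 days (purple) and DMSO at 3 days against 1 day (grey); bars are 1 SE and open points have an adjusted p of 0.05 or more. The 3 comparisons share libraries, and Osgin1 stands at -1.54, -0.03 and -1.50.

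Set directly against each other at the listed 1 day, BML-260 was above ISO in 5 of the 10 genes and below it in 3, where 44.4% of all tested genes were called, 21.6% as higher and 22.8% as lower with BML-260. Higher with BML-260 were Osgin1 by 1.41 (edgeR adjusted p = 2.5e-10), Cbr3 by 0.61 (1.5e-09), Srxn1 by 0.48 (2e-08), Nqo1 by 0.33 (0.0065) and Gclm by 0.16 (0.0098) on the log2 scale. Lower with BML-260 were Abcc1 at -0.27 (edgeR adjusted p = 2.4e-05), Hmox1 at -0.25 (0.00068) and Nfe2l2 at -0.15 (0.011). Gclc at 0.04 (edgeR adjusted p = 0.63, 95% interval -0.09 to 0.17) and Txnrd1 at 0.03 (edgeR adjusted p = 0.70, 95% interval -0.08 to 0.14) did not pass. The set above ISO held both reductases, sulfiredoxin, the modifier subunit and Osgin1, and the set below it heme oxygenase, the pump and Nfe2l2. Without ISO replicate 2 the difference for Hmox1 was -0.11 (edgeR adjusted p = 0.092) and that for Gclc 0.19 (edgeR adjusted p = 0.025). Calls of Gclm were lost without BML-260 1 day replicate 2 and without ISO replicate 1 (edgeR adjusted p = 0.10 and 0.085), of Nfe2l2 without BML-260 1 day replicate 2 and with upper-quartile scaling (0.12 and 0.059), and of Nqo1 without BML-260 1 day replicate 1 (0.059). DESeq2 gave adjusted p = 0.05 for Nqo1 in this comparison.

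Between 1 and 3 days with DMSO alone 4 of the 10 genes rose and 1 fell, where 34.9% of all tested genes were called, 18.1% as higher and 16.8% as lower. Osgin1 fell by 1.50 (SE 0.12, edgeR adjusted p = 1.6e-10). Gclc rose by 0.29 (edgeR adjusted p = 0.0014), Hmox1 by 0.25 (0.001), Abcc1 by 0.18 (0.0031) and Nfe2l2 by 0.15 (0.01) on the log2 scale. Cbr3 at -0.12 (edgeR adjusted p = 0.14), Srxn1 at -0.12 (0.093), Txnrd1 at -0.02 (0.79), Nqo1 at -0.01 (0.93) and Gclm at -0.01 (0.92) did not pass. The call of Nfe2l2 was lost without DMSO 1 day replicate 2, DMSO 3 days replicate 1 or DMSO 3 days replicate 2 (edgeR adjusted p = 0.09, 0.095 and 0.064), and Srxn1 passed without DMSO 1 day replicate 2 (-0.19, edgeR adjusted p = 0.027) and with upper-quartile scaling (-0.14, 0.046).

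Ordered by group mean, neighbours were compared with p-values of edgeR's test adjusted over all genes in that pair of groups. For Hmox1 every step of the order DMSO 1 day, DMSO 3 days, BML-260 1 day, ISO, BML-260 3 days passed. Cbr3 had the order DMSO 3 days, DMSO 1 day, ISO, BML-260 1 day, BML-260 3 days, and the step between the DMSO groups was the one that did not pass (edgeR adjusted p = 0.14), though their libraries did not overlap. For Srxn1 and Nqo1 the one passing step lay between ISO and BML-260 at 1 day, with both DMSO groups below ISO and BML-260 at 3 days on top. Between groups that are not neighbours, Srxn1 in ISO was above DMSO at 3 days (0.21, edgeR adjusted p = 0.0061). The step between BML-260 at 1 and 3 days was 0.00 for Srxn1 (edgeR adjusted p = 0.98), whereas it was 0.57 for Hmox1 (6e-09), 0.39 for Abcc1 (1.2e-07), 0.39 for Gclc (9.8e-06), 0.22 for Cbr3 (0.0012) and 0.20 for Txnrd1 (0.0021). For Txnrd1 and Gclc the step between ISO and BML-260 at 1 day did not pass, and BML-260 at 3 days was above both. No step passed for Gclm between ISO, BML-260 at 3 days and BML-260 at 1 day, nor for Nfe2l2 from DMSO at 3 days through BML-260 to ISO. Groups that are not neighbours did differ in both genes. Gclm was higher with BML-260 at 1 day than with ISO (0.16, edgeR adjusted p = 0.0098). Nfe2l2 with ISO was above DMSO at 3 days (0.15, edgeR adjusted p = 0.018) and above BML-260 at 1 day (0.15, 0.011). Per kilobase of coding transcript, with DMSO at 1 day, Nfe2l2 was next after Hmox1 at 59.3 CPM per kb, and Osgin1 was the least abundant at 8.33 CPM per kb. With BML-260 Cbr3 stood above Nfe2l2, at 91.7 against 66.2 CPM per kb at 1 day and 107 against 71.2 CPM per kb at 3 days.

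The genes around the 10 targets were read from 8 lists, and their counts stand against the shares over all tested genes given above: with BML-260 9.32% rose and 8.62% fell at 1 day, and 17.3% rose and 18.3% fell at 3 days. Of 9 regulators of NRF2, 4 rose at 1 day and 6 at 3 days and none fell, with medians of 0.16 and 0.28. Keap1, the repressor of NRF2, was at 0.03 and -0.09 (edgeR adjusted p = 0.84 and 0.32) and Bach1, the competing repressor, at 0.05 and 0.04 (0.70 and 0.69) at 1 and 3 days. The small MAF partners differed: Mafg rose by 0.28 and 0.34 (edgeR adjusted p = 0.00038 and 1e-05), while Mafk stood at 0.28 (0.091) at 1 day and rose by 0.97 (5.5e-09) at 3 days, from 23.3 to 45.7 CPM. Sqstm1 encodes p62, which can sequester KEAP1, and rose by 0.33 and 0.57 (edgeR adjusted p = 1.2e-05 and 3.4e-10). Nfe2l1, the NRF1 gene, rose by 0.16 and 0.38 (edgeR adjusted p = 0.0088 and 1.4e-07). The effect was larger at 3 days for Mafk by 0.69, for Sqstm1 by 0.24 and for Nfe2l1 by 0.21 (edgeR adjusted p = 0.0043, 0.025 and 0.03). With ISO against DMSO at 1 day Keap1 fell by 0.20 (edgeR adjusted p = 0.018), Bach1 rose by 0.24 (0.003) and 5 of the 9 rose (21.4% of all tested genes). Against DMSO at 3 days 4 rose (10.6% of all tested genes) and none fell. Against these DMSO groups in turn, Sqstm1 rose by 0.82 and 0.24 (edgeR adjusted p = 4.7e-13 and 0.00072) with ISO. Mafk was at 0.81 and 0.24 (9.4e-07 and 0.098), and Mafg at -0.11 and -0.07 (0.089 and 0.42). Over time with DMSO alone Sqstm1 and Mafk both rose by 0.58 (edgeR adjusted p = 4.3e-10 and 0.00018).

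Other antioxidant genes made up the other 7 lists. Over all 8 lists, 28 of 63 tested genes rose and 1 fell with BML-260 at 1 day, where 9.32% of all tested genes rose and 8.62% fell, with a median of 0.13. At 3 days 30 rose and 10 fell, where 17.3% of all tested genes rose and 18.3% fell, with a median of 0.12, and the share that fell was near that of all genes. At 3 days 8 of the 10 target genes rose, with a median of 0.51. Among 6 genes that supply NADPH, the reductant these enzymes use, 4 rose at 1 day, and at 3 days 5 rose and 1 fell. Pgd, of the pentose phosphate pathway, was at 0.43 and 0.56, its neighbour Taldo1 at 0.32 and 0.33, G6pdx at 0.27 and 0.14 and malic enzyme, Me1, at 0.42 and 0.36, all passing at both times. Isocitrate dehydrogenase, Idh1, fell by 0.60 at 3 days (edgeR adjusted p = 3.2e-10) and was at -0.05 (0.49) at 1 day. With DMSO alone all 6 fell between 1 and 3 days, where 16.8% of all tested genes fell, and against DMSO at 1 day 4 fell and 1 rose with ISO, where 20.3% fell and 21.4% rose. Over all 8 lists, 18 of the 63 genes rose and 22 fell with ISO against DMSO at 1 day, with a median of -0.04. Against DMSO at 3 days 18 rose and 6 fell, where 10.6% of all tested genes rose and 9.24% fell, with a median of 0.05.

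Of 9 heme and iron genes 5 rose and none fell at 1 day, and 4 rose and 1, Blvra at -0.23, fell at 3 days, where 17.9% and 35.5% of all tested genes were called. The ferritin genes Ftl1 and Fth1, which store the iron that heme breakdown frees, rose by 0.55 and 0.27 at 1 day and by 0.80 and 0.54 at 3 days (edgeR adjusted p = 3.8e-11 and 4.2e-10 at 3 days). Ferritin genes have many near-identical copies, so their counts are uncertain. Blvrb, a biliverdin reductase, rose by 0.34 and 0.53.

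Among 7 genes of glutathione supply and use 2 rose at 1 day and 3 at 3 days, and none fell. Of all tested genes 17.9% and 35.5% were called, so that the 3-day count was near the share called in either direction. The shares called as higher were 9.32% and 17.3%. Slc7a11, the cystine importer, was at 0.14 and 0.07 (edgeR adjusted p = 0.49 and 0.70). Its partner chain Slc3a2 was at 0.12 (0.059) at 1 day and rose by 0.28 (9.6e-06) at 3 days. Glutathione reductase, Gsr, rose by 0.25 at 1 day (edgeR adjusted p = 0.0027) and was at 0.14 (0.069) at 3 days, and the lipid peroxidase Gpx4 rose by 0.19 and 0.33. Of 13 thioredoxin and peroxiredoxin genes 5 rose at 1 day, and 5 rose and 1, Txnip at -0.14, fell at 3 days, where again 17.9% and 35.5% of all tested genes were called. Txn2, Prdx6, Prdx3 and Prdx1, which carry or use thioredoxin's electrons or reduce peroxides, were at 0.39, 0.34, 0.26 and 0.14 at 3 days, all passing.

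Of 10 carbonyl and quinone genes 4 rose at 1 day and none fell, and 3 rose and 3 fell at 3 days, where 17.9% and 35.5% of all tested genes were called. Their median at 3 days, -0.0153, was that of all tested genes (-0.0161), and those that fell were Aox1 at -0.37, Nqo2 at -0.30 and Ptgr1 at -0.27, named after their values were seen, like Blvra, Txnip and Abcc3. Cbr1, the close relative and neighbour of Cbr3, rose by 0.52 and 0.50, the esterase Esd by 0.44 and 0.59, and the epoxide hydrolase Ephx1 by 0.43 and 0.39. Of 5 ABC exporters 2 rose at 1 day, and 2 rose and 2 fell at 3 days, against the same shares of 17.9% and 35.5%: Abcc4 rose by 0.52 and 0.39 and Abcb6 by 0.18 and 0.30, while Abcc5 fell by 0.17 and Abcc3 fell by 0.52 at 3 days. Of 4 superoxide and catalase genes 2 rose and 1 fell at 1 day, and 2 rose and 2 fell at 3 days, against 17.9% and 35.5% called of all tested genes. The cytosolic dismutase Sod1 was at 0.36 and 0.34, catalase, Cat, at 0.27 and 0.28, and the secreted dismutase Sod3 at -0.24 and -0.56, all passing.

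**Figure D4:**
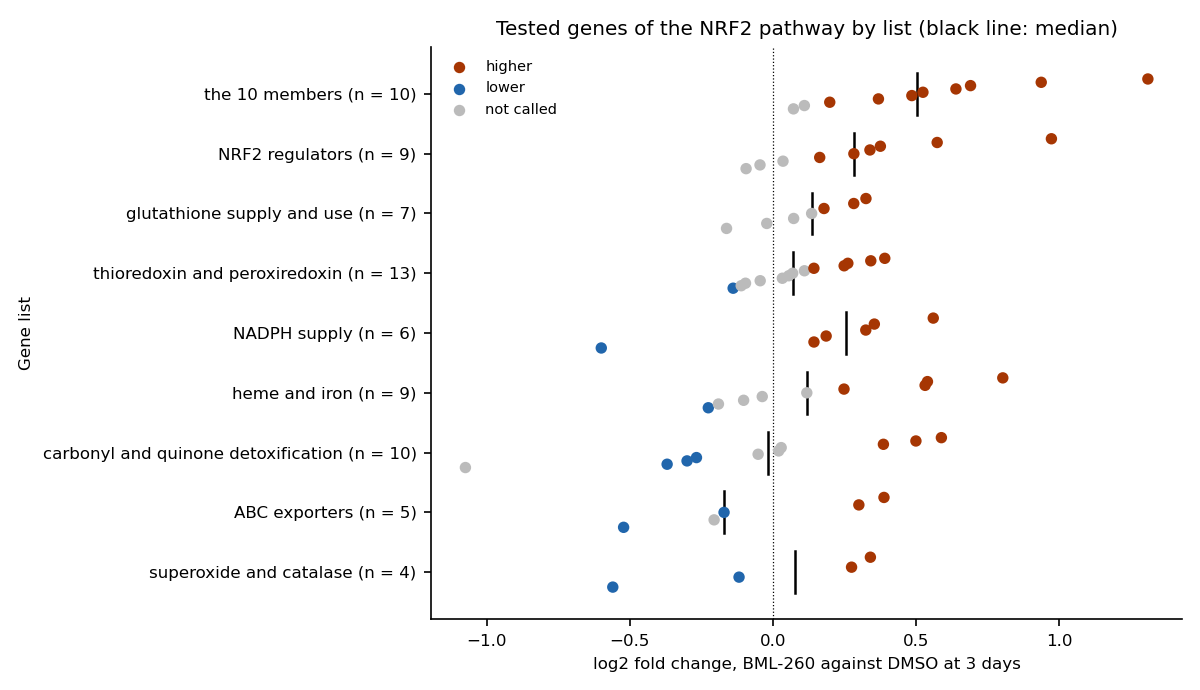
Log2 fold change of BML-260 against DMSO at 3 days for each tested gene of the 10 targets and of 8 lists of related genes (points, coloured by call; black line, list median). The median is 0.51 for the 10 targets and 0.28 for the NRF2 regulators, and each of the 8 lists has genes on both sides of 0.

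The genes whose pattern over the 10 libraries was most like the mean standardized log2 level of the 10 targets were sought among 8956 other genes of at least 10 CPM. They were Polr3e (Pearson's r = 0.99), Atf4 (0.99), Chmp7 (0.98), Ypel5 (0.98), Pvrl2 (0.98) and Stambpl1 (0.98), over 10 libraries that fall into 5 groups. The related genes of the lists above and predicted or unnamed loci were left out of this search, so their likeness was not examined. Among the 10 targets themselves the pair most alike was Srxn1 and Cbr3 (r = 0.97), followed by Hmox1 and Gclc (0.95), and the least alike was Osgin1 and Nfe2l2 (-0.76), over the same libraries. These values describe the groups' means as much as the libraries.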

How the data were processed

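Gene counts were read from the deposited table of all genes, which holds the authors' raw counts by gene symbol. The authors' deposited tables of listed genes hold, per the file headers, a log2 fold change and an adjusted p-value. TopHat2 2.1.1, bcl2fastq 2.17.1.14, DESeq2 and bedtools are named, per the submitters' processing notes. The builds named there have no stated role, and strandedness, annotation and counting are not stated, so gene positions were taken by symbol from GENCODE M21 (GRCm38). Without strand, overlapping genes cannot be separated.

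Samples were grouped by their titles and treatment labels. In R 4.3.3, edgeR 4.0.16 used TMM scaling, filterByExpr (minimum count 10, minimum total 15), group means fitted over all 10 libraries, leaving 5 residual degrees of freedom, and a quasi-likelihood test with Benjamini-Hochberg adjustment over 15212 genes. The SE was derived from that test. The common dispersion was 0.00115, a coefficient of variation of 3.39% beyond counting error. In 7 comparisons alternatives were DESeq2 1.42.0, its size factors, upper-quartile scaling, no filter, a replicate block, only the groups compared, and leaving out each library. The code was tested on simulated data.

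The 10 genes, the lists of 67 related genes (63 tested) and the markers were chosen with earlier results of these data known. Named were all 10 targets, up to 3 genes of smallest p in each list for BML-260 at 3 days, the genes Keap1, Bach1, Mafg, Sqstm1, Slc7a11, Gsr, G6pdx, Me1, Prdx1, Fth1 and Ftl1, and the 6 most alike genes. A replicate number given to a library marks no stated pairing.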

Additional observations from a re-analysis of the deposited data

Results flagged for a closer look

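Among the 10 genes, 2 had an effect of BML-260 that differed between the times by the interaction of compound and time. The log2 effect was larger at 3 days than at 1 day by 0.31 for Hmox1 (edgeR adjusted p = 0.015) and by 0.34 for Cbr3 (edgeR adjusted p = 0.0091). In both genes both 3-day BML-260 libraries were above both 1-day BML-260 libraries. The DMSO level rose over the same time for Hmox1 (0.25, edgeR adjusted p = 0.001) and stood at -0.12 (edgeR adjusted p = 0.14) for Cbr3.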

How the results depend on the processing

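Of 1120 recomputed fold changes of the 10 genes, 1045 kept their direction and their side of the threshold, 43 lost the call, 22 gained it and 10 changed sign, all with values that did not pass. With upper-quartile scaling Nqo1 was at -0.0293 for ISO against DMSO, 1 day, and with no filter Gclm was at 0.0003833 for DMSO over time. The other 8 came from leaving out a library, where values ran from -0.0417 to 0.145 for Nqo1 and from -0.0974 to 0.0529 for Osgin1 (ISO against DMSO 3 days), from -0.0781 to 0.189 for Gclc and from -0.0649 to 0.137 for Txnrd1 (BML-260 against ISO), and from -0.0315 to 0.0170 for Gclm and from -0.1199 to 0.0668 for Nqo1 (DMSO over time).

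Leaving out each library in turn gave 6 to 9 of the 10 genes called for BML-260 at 1 day, 8 to 9 at 3 days, 1 to 4 for the difference between times, 6 to 9 for ISO against DMSO at 1 day, 3 to 8 for ISO against DMSO at 3 days, 6 to 8 for BML-260 against ISO and 4 to 5 for DMSO over time. Where this left 1 library in a group, it was assumed to vary like the other groups. The difference between times had 4 genes called, against 2, with DESeq2's size factors in edgeR, with no filter on low counts, with only the groups compared and with the replicate block. The cause of these changes was not tested. Over all genes, the count called for BML-260 at 1 day was 2728, and 1235 to 1810 without DMSO 1 day replicate 2 or either BML-260 1 day library and 1769 with DESeq2. For the difference between times it was 1284, and 659 to 794 without DMSO 1 day replicate 2, either DMSO 3 days library or BML-260 3 days replicate 1 and 731 with DESeq2. For ISO against DMSO 3 days it was 3026, and 1469 to 1711 without ISO replicate 2 or either DMSO 3 days library and 1843 with DESeq2.

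The replicate numbers do not show pairing: differences between replicate 2 and replicate 1 correlated across genes between groups at -0.0344 to 0.0577. With the replicate block the difference between times called 4 genes, adding Abcc1 (edgeR adjusted p = 0.038) and Txnrd1 (0.044), and Nfe2l2 passed for BML-260 at 3 days (0.11, edgeR adjusted p = 0.047). The block changed no other call of the 10 genes.

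With 2 libraries a group, small fold changes are the least certain, and Osgin1 and Nqo1 rest on the fewest counts.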
